A study of Mus musculus with 4 samples.

Results

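Leukocyte adhesion genes, 10 in all, were followed in the endothelium of the mouse heart after lipopolysaccharide (LPS). They were Sele, Selp, Selplg, Vcam1, Icam2, Madcam1, F11r, Jam2, Cd44 and Cd47, chosen as the oligonucleotides whose gene symbol in the platform annotation was exactly one of these names. This gave 12 of the 16224 oligonucleotides on the array, each printed in 2 adjacent spots, for 10 of the 11138 genes with a symbol of their own. Jam2 and Cd47 had 2 oligonucleotides each.

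RNA from cardiac endothelium, the lining of the heart's vessels, was taken from mice injected intraperitoneally with LPS, a glycolipid from the cell wall of Gram-negative bacteria, and from mice injected with saline. Hearts were collected 4 h or 24 h after injection, and amplified LPS and saline RNA were hybridised together in 2 colours on an array of long oligonucleotides. Each time had 2 arrays, with LPS RNA in Cy5 on replicate 1 and in Cy3 on replicate 2, the dye reversal. Not given in the sources used here are strain, sex, age, dose, the number or pooling of animals and the way the endothelium was isolated. Since no label names other animals or RNA for the reversed array, the pair was counted as 1 replicate, and no p-value is given as a result. The deposited values are ratios and hold no level, so neither the abundance of a gene nor the presence of endothelial markers could be checked, and fewer cells of a type cannot be told apart from less RNA per cell.

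Leukocytes leave the blood in steps. Selectins on activated endothelium catch passing cells by sugars on ligands such as PSGL-1 and let them roll, Ig adhesion molecules such as VCAM-1 and ICAM-2 then bind leukocyte integrins and hold them, and junctional molecules of the JAM family take part where cells pass between endothelial cells. E-selectin and VCAM-1 are textbook targets of NF-kB, the transcription factor that LPS activates through Toll-like receptor 4, whereas ICAM-2 is present on resting endothelium.

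Upstream sequences from RefSeq (GRCm38.p6) were at hand for 6 of the 10 genes, Sele, Selp, Madcam1, F11r, Cd44 and Cd47. Shown are the 250 bases before the transcription start of the genes of both vascular selectins and of Madcam1, shown because its promoter is known for kB sites while its ratios were low on these arrays. They cover chr1:164047984-164048233 for Sele, chr1:164115014-164115263 for Selp and chr10:79664309-79664558 for Madcam1, all on the plus strand. Capitals mark matches to 3 motifs, searched on both strands and chosen with these sequences in view.
Sele: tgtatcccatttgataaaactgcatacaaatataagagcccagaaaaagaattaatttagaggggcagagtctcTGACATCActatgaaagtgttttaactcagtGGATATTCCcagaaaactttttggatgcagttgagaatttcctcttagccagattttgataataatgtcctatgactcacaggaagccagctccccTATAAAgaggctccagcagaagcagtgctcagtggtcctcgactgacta
Selp: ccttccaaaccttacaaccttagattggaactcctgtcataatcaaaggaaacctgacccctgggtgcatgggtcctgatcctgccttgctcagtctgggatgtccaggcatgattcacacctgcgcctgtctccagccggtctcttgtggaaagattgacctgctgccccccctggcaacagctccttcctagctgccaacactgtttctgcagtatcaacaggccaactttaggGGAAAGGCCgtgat
Madcam1: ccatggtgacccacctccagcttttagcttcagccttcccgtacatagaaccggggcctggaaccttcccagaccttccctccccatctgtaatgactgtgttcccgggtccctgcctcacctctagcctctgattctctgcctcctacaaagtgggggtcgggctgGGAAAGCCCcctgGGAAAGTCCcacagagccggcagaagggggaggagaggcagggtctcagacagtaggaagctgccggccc

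The motifs were a kB form, GGNNNTTCC, the ATF or CRE-like element TGACATCA and the TATA box TATAAA, and no matches overlapped. Upstream of Sele, the kB form matched as GGATATTCC, from base -145 to -137 before the start, TGACATCA matched from -176 to -169, and TATAAA from -49 to -44. Upstream of Selp, the kB form matched on the minus strand, reading GGAAAGGCC on the plus strand from -14 to -6. Madcam1 held a pair of neighbouring kB matches on the minus strand, reading GGAAAGCCC from -83 to -75 and GGAAAGTCC from -70 to -62. Of the 32851 windows of the same length in the RefSeq table, 15.7% held the kB form, 2.93% TGACATCA and 12.4% TATAAA. A match describes the letters and does not show that a factor binds there.

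**Figure D1:**
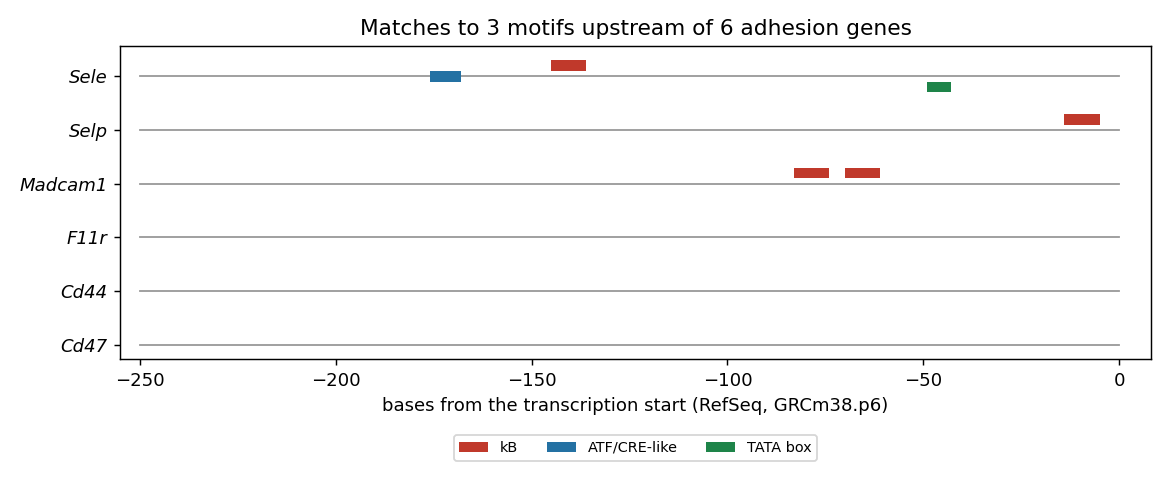
Positions of motif matches in the 250 bases upstream of 6 adhesion genes. The horizontal axis gives bases from the RefSeq transcription start, each grey line is a gene and each coloured bar a match. Sele has a match to each of the 3 motifs, Madcam1 has kB matches between -83 and -62, and F11r, Cd44 and Cd47 have no match in this window.

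The question was which of these genes differed between LPS and saline at each time, and whether the times differed. Values are log2 LPS over saline. Spot values are as deposited, with the sign of the LPS-in-Cy3 arrays turned, and gene values are means over spots, then oligonucleotides, centred on each array's median over genes and given as mean ± SD of the 2 arrays (n = 2 arrays), an error of array and dye that leaves out how animals vary. A gene was called higher or lower where its value was 1 log2 unit (2-fold) or more from 0, on the same side, on both arrays. The dyes in the labels make this direction likely, but the deposited table does not state it: the deposited values of the 2 arrays correlated at only -0.056 at 4 h and -0.064 at 24 h over all 32448 spots. Were the deposited ratios Cy3 over Cy5, all signs given here would turn, and if replicate 2 had already been turned, a called gene would lie in opposite directions on its arrays. The arrays also differed in spread, with an SD over genes of 1.20 and 0.73 at 4 h and of 1.17 and 1.14 at 24 h.

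At 4 h, Sele was called higher, 1 of 10 genes, and none was called lower. Over all genes, 2.25% were called higher and 0.997% lower (3.25% in all), and for 1.42% the arrays were 2-fold in opposite directions. Both arrays lay above 0 for 6 of the 10 genes, against 24.3% of all genes, and below 0 for 2, against 25.6%. The median of the 10 means was 0.58, and that of all genes -0.02. At 24 h, Vcam1 was called higher, again 1 of 10, where 3.48% of all genes were called higher and 3.52% lower (7.0% in all) and 3.69% were 2-fold in opposite directions. Both arrays were above 0 for 6 genes and below 0 for 2 at 24 h too, with 26.1% of all genes on each side, and the median was 0.65 against -0.02 over all genes. With so few genes, 1 call in 10 cannot be set apart from these shares.

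**Figure D2:**
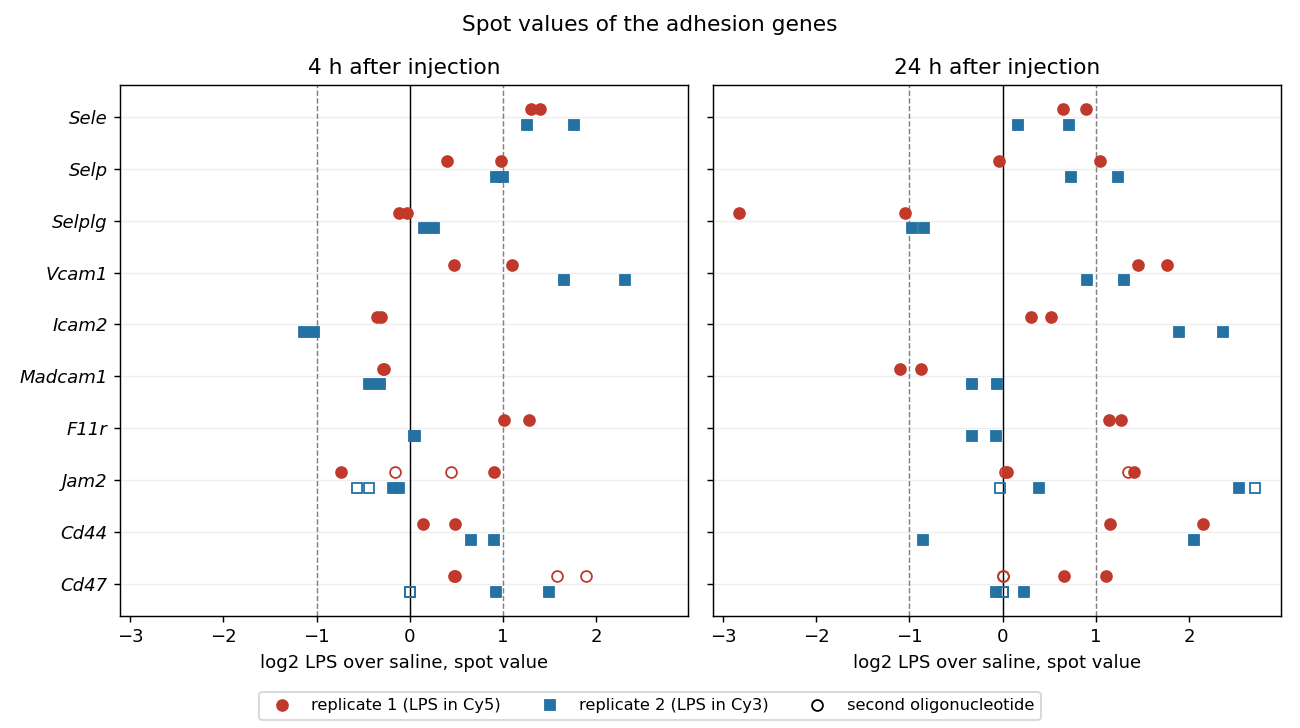
Spot values of the 10 genes, as log2 LPS over saline, at 4 h and at 24 h. Each point is a spot, red circles are replicate 1 (LPS in Cy5), blue squares replicate 2 (LPS in Cy3), open symbols the second oligonucleotide, and dashed lines mark 2-fold. At 4 h all 4 spots of Sele lie beyond 2-fold, and F11r separates by array at both times.

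Sele encodes E-selectin, which activated endothelium makes anew and which catches neutrophils and other leukocytes. At 4 h its spots read 1.40 and 1.30 on replicate 1 and 1.76 and 1.26 on replicate 2, so that every spot was more than 2-fold higher with LPS. Over all genes, 1.58% were 2-fold in every spot at 4 h, 1.25% higher and 0.332% lower. The gene value was 1.43 ± 0.11, a 2.70-fold ratio, and Sele lay at percentile 92.0 and 96.6 of all genes on the 2 arrays. At 24 h the spots read 0.89 and 0.64 on replicate 1 and 0.16 and 0.70 on replicate 2, all above 0 and all below 2-fold. The mean was then 0.58 ± 0.29, or 1.49-fold, and the gene was not called. Both arrays of 24 h lay below both of 4 h, but the means differed by -0.85, short of the 2-fold asked for between the times. With the spread of the arrays made equal this difference reached -1.41 by scale and -1.17 by quantile normalization, and Sele was then called lower at 24 h than at 4 h.

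Selp encodes P-selectin, which endothelium keeps ready in Weibel-Palade bodies and which platelets also carry. Its spots at 4 h were 0.98 and 0.40 on replicate 1 and 0.93 and 1.00 on replicate 2, all above 0. At 24 h they were 1.04 and -0.04 on replicate 1 and 1.24 and 0.73 on replicate 2. The gene values were 0.83 ± 0.19 and 0.72 ± 0.28, or 1.78-fold and 1.65-fold, below the threshold at both times. The 4 arrays lay between 0.52 and 0.96, and the times overlapped, with a difference of -0.11. Sele and Selp were thus above 0 on all 4 arrays, as were Vcam1 and Cd44 among the members and 8.0% of all genes. Of these selectins, only Sele had both arrays of 4 h above both of 24 h. Platelet markers gave no call in 8 genes at either time, with medians of 0.30 and 0.36, and their part in the Selp values was not tested.

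Selplg encodes PSGL-1, the ligand of P-selectin on leukocytes. At 4 h its spots lay close to 0, at -0.11 and -0.03 on replicate 1 and at 0.26 and 0.15 on replicate 2. At 24 h all 4 were below 0, at -1.05 and -2.83 on replicate 1 and at -0.85 and -0.98 on replicate 2, and the spot at -2.83 stood apart from its duplicate by 1.78. The gene value went from 0.07 ± 0.19 at 4 h to -1.45 ± 0.66 at 24 h. Selplg missed the call at 24 h by little, since replicate 2 stood at -0.98. Between the times it differed by -1.52, with both arrays of 24 h below both of 4 h, and was called lower. Its arrays of 24 h lay at percentiles 6.66 and 13.9 of all genes.

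Markers of leukocytes, the cells known to carry PSGL-1, moved in different directions on the same arrays. Of 13 neutrophil genes, 1 was higher at 4 h, Lcn2, and at 24 h 4 were higher and 1 lower, with medians of -0.13 and -0.07. Over all genes, 3.48% were called higher and 3.52% lower at 24 h. At 24 h S100a8 was at 2.58 ± 1.17, S100a9 at 1.55 ± 0.08, Fpr2 at 1.20 ± 0.08, Lcn2, which other cells also make in inflammation, at 5.17 ± 0.34, and Ngp at -1.62 ± 0.82. Not called, but below 0 on both arrays of 24 h, were the neutrophil genes Ly6g at -1.26, Ltf at -1.03, Csf3r at -0.87 and Mpo at -0.63. Mmp8, also not called, was above 0 on both, at 0.53. None of 10 monocyte and macrophage genes was called at either time, with medians of -0.10 and -0.42. Of 10 lymphocyte genes, 1 was lower at 24 h, Cd5 at -2.00 ± 1.00. How far leukocytes in the isolate took part in the values of Selplg and of Cd44, which leukocytes also carry, was not tested.

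Among the Ig adhesion molecules, Vcam1 encodes VCAM-1, the ligand of the integrin alpha4 beta1 on monocytes and lymphocytes. All of its 8 spot values were above 0. At 4 h they read 1.10 and 0.48 on replicate 1 and 2.31 and 1.65 on replicate 2, so that the arrays did not overlap, and at 24 h 1.45 and 1.76 on replicate 1 and 0.90 and 1.30 on replicate 2. The means were 1.39 ± 0.84 and 1.33 ± 0.41, or 2.62-fold and 2.52-fold, and differed by -0.06. The means of the 2 times were thus close, and only that of 24 h met the call, since replicate 1 of 4 h stood at 0.80. The call at 24 h did not hold in every spot, a criterion that 3.60% of all genes met at that time (1.92% higher and 1.68% lower), and was lost by scale normalization, at 1.04, and by quantile normalization, at 1.29.

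Icam2 encodes ICAM-2, a ligand of the integrin LFA-1. At 4 h its spots were below 0 on both arrays, at -0.36 and -0.31 on replicate 1 and at -1.03 and -1.13 on replicate 2. At 24 h all were above 0, at 0.30 and 0.52 on replicate 1 and at 2.36 and 1.89 on replicate 2. Duplicate spots differed by at most 0.47 on any array, while the arrays of a time lay further apart. The means were -0.70 ± 0.54 and 1.25 ± 1.16, and neither time was called. Icam2 was called higher at 24 h than at 4 h, with a difference of 1.95 and no overlap of the arrays, but on replicate 1 alone the difference was 0.75, under the threshold. Being below 0 on both arrays of 4 h and above 0 on both of 24 h was seen in 6.46% of all genes, and the opposite in 5.84%. Of 12 endothelial markers, Kdr and Eng were lower at 4 h, at -1.89 ± 0.75 and -1.87 ± 0.84, and higher at 24 h, at 2.21 ± 0.48 and 3.91 ± 0.85. Cldn5 was higher at 4 h, and the list's medians were 0.01 and 0.29. Among the uncalled markers, Esam and Robo4 were above 0 on both arrays of 4 h, at 1.19 and 0.43, and Flt1 was below, at -0.22. On both arrays of 24 h, Cdh5 at -0.42, Emcn at -0.13 and Cldn5 at -0.66 were below 0. Above 0 there, though not called, were Esam at 0.63, Robo4 at 1.00, Tek at 0.54 and Egfl7 at 0.90. The part of the endothelial share of the isolate in the Icam2 values was not tested.

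Madcam1 encodes MAdCAM-1, the ligand of the integrin alpha4 beta7 that is best known from vessels of the gut. It was below 0 in all 8 spot values. They ran from -0.43 to -0.28 at 4 h and from -1.10 to -0.06 at 24 h. The means were -0.32 ± 0.08 and -0.61 ± 0.50, neither of them called, with overlapping arrays between the times. Among all genes, 7.60% were below 0 on all 4 arrays. In the upstream windows, the kB form matched at 1 position for Sele, which was called at 4 h. It matched at 1 position for Selp and at 2 for Madcam1, neither of them called. Madcam1 was shown with its low ratios known, and a link between kB matches and calls was not tested.

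Of the junctional Ig molecules, F11r encodes JAM-A, found at tight junctions. At 4 h its spots were 1.01 and 1.28 on replicate 1 but 0.04 and 0.06 on replicate 2, and at 24 h 1.26 and 1.14 on replicate 1 but -0.07 and -0.33 on replicate 2. F11r was thus more than 2-fold from 0 on both arrays with LPS in Cy5 and near 0 on both with LPS in Cy3, and dye and array cannot be told apart here. The means of 0.60 ± 0.78 and 0.48 ± 1.05 do not differ from 0 beyond the spread of the arrays.

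Jam2, which encodes JAM-B, was measured by 2 oligonucleotides. At 4 h its 8 spot values ran from -0.74 to 0.90, with 2 above 0, and the mean was -0.10 ± 0.31. At 24 h the first oligonucleotide read 1.41 and 0.04 on replicate 1 and 0.39 and 2.53 on replicate 2, and the second 0.03 and 1.34 on replicate 1 and -0.03 and 2.70 on replicate 2. Each oligonucleotide thus had a high and a low spot on each array. The mean at 24 h was 1.03 ± 0.43, not called, and the oligonucleotides taken alone gave 1.07 and 0.99. Between the times Jam2 was called higher at 24 h, with a difference of 1.13, a value that rests on spots up to 2.73 apart and fell under the threshold on replicate 1 alone, at 0.60. Over all oligonucleotides of replicate 2 at 24 h, the median gap of duplicate spots was 0.52 and the 90th percentile 2.85.

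Cd44 encodes the hyaluronan receptor CD44, which also binds selectins. Its spots at 4 h were 0.49 and 0.14 on replicate 1 and 0.65 and 0.90 on replicate 2, all above 0 and below 2-fold. At 24 h they were 1.15 and 2.15 on replicate 1 and -0.86 and 2.05 on replicate 2. The duplicate spots of the last array lay 2.91 apart, the widest gap of any member. The means were 0.55 ± 0.32 and 1.10 ± 0.81, neither called, and the arrays of the times overlapped.

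Cd47 encodes the integrin-associated protein CD47, which binds thrombospondin and SIRP-alpha on myeloid cells. Its first oligonucleotide read 0.48 and 0.49 on replicate 1 and 0.93 and 1.49 on replicate 2 at 4 h. At 24 h it read 0.66 and 1.10 on replicate 1 and -0.07 and 0.23 on replicate 2. The second read 1.89 and 1.58 on replicate 1 at 4 h and a ratio of exactly 1 in both spots of the other 3 arrays. Those were the 6 of 96 spot values of the members with a ratio of exactly 1, and the table does not tell measured from filled-in values. The gene values were 0.86 ± 0.36 and 0.22 ± 0.34. Without the ratios of exactly 1 Cd47 stood at 1.18 at 4 h and was called higher there. Replicate 1 then averaged both oligonucleotides, while replicate 2 held only the first. The first was at 0.48 on replicate 1, so neither oligonucleotide was 2-fold higher on both arrays.

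Between the times, 3 of the 10 genes were called, Icam2 and Jam2 higher and Selplg lower at 24 h than at 4 h. This call asked for means at least 2-fold apart and both arrays of one time above both of the other, and took 9.43% of all genes as higher and 10.3% as lower (19.8% in all). Whether saline RNA was shared by the 2 times is not stated in those sources. None of these 3 was called against saline at 4 h or at 24 h. Neither of the genes called against saline, Sele and Vcam1, was called between the times. Of all genes, only 3.25% were called against saline at 4 h, and 3.48% were called higher and 3.52% lower at 24 h. The share of all genes called both against saline and between the times is not given here. The lack of overlap among so few genes is thus a description and cannot be taken as a trait of them.

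**Figure D3:**
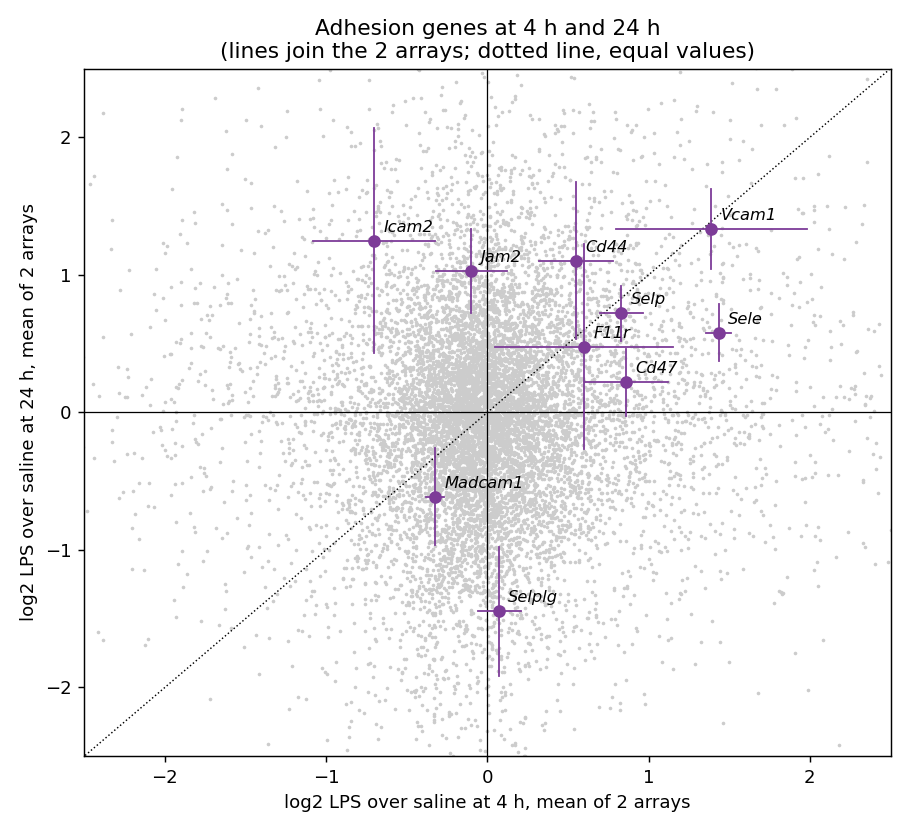
Means of the 10 genes at 4 h (horizontal) and 24 h (vertical), in log2 LPS over saline, with lines joining the 2 arrays of a time and grey points for all genes within the plotted range of -2.5 to 2.5. Vcam1 and Selp lie near the dotted line of equal values, Sele lies to its right at 1.43 and 0.58, and Icam2 at -0.70 and 1.25 and Selplg at 0.07 and -1.45 lie far from it.

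The genes whose 4 array values lay closest to those of Sele, by root-mean-square distance over the 4 arrays, were Arhgap45 at 0.16, Btg1 at 0.19 and Tma16 at 0.20. Those closest to Vcam1 were Tyms-ps at 0.31, Trmt13 at 0.32 and Nmi at 0.33. The distance over 4 arrays holds array error too, and these are descriptions.

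Partners of the 10 genes were taken from 6 lists of other adhesion genes, of whose 85 genes 69 were measured. Icam1, Cd34 and Itgam were not analysed here. At 4 h 2 of the 69 were called higher and 0 lower, and at 24 h 3 higher and 0 lower, with medians of 0.02 and -0.01. Over all genes 2.25% were called higher at 4 h and 3.48% at 24 h, so that the lists held about the share of the array. Between the times 5 of the 69 were called higher and 5 lower at 24 h, where 9.43% and 10.3% of all genes were.

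Selectin ligands and the enzymes that modify them held 1 call in 16 genes. Tpst1, a tyrosylprotein sulfotransferase of the kind that sulfates PSGL-1, stood at 1.59 and 1.11 on the arrays of 24 h, a mean of 1.35 ± 0.34. At 4 h its arrays lay on opposite sides of 0, at 0.17 and -1.60. The list's medians were 0.03 and 0.09. Between the times 3 genes of this list were called higher at 24 h, Tpst1 by 2.06, Glg1, which encodes an E-selectin ligand, by 1.91 and Glycam1 by 1.62. None of 7 leukocyte integrin genes, the partners of the Ig molecules, was called at either time, with means from -0.74 to 0.54 at 4 h and from -1.86 to 0.33 at 24 h. Of 12 other endothelial Ig and mucin genes, 0 were called at 4 h or at 24 h, and 3 were called lower at 24 h than at 4 h, Icam4 with a difference of -1.42, Mcam of -1.16 and Vcan of -1.09. Of 10 genes of release and shedding, 0 were called at either time or between the times.

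The junction list held 2 of 11 genes higher at 4 h and 1 at 24 h, where 2.25% and 3.48% of all genes were called higher. Its medians were 0.13 at 4 h and -0.38 at 24 h. Ctnnb1, which encodes beta-catenin, the partner of cadherins at junctions, read 2.26 and 2.11 on the arrays of 4 h (2.19 ± 0.11) and 0.67 ± 0.44 at 24 h. Cldn5, the claudin of endothelial tight junctions, read 1.22 and 1.36 at 4 h (1.29 ± 0.10) and -0.06 and -1.27 at 24 h. Both were 2-fold higher in every spot at 4 h. Pard3, a polarity scaffold at tight junctions that binds JAM proteins, read -0.53 and -2.32 at 4 h and 1.44 and 1.19 at 24 h (1.32 ± 0.18). Between the times Pard3 was called higher, by 2.74, and Cldn5 and Ctnnb1 lower, with differences of -1.96 and -1.52. Among 13 partners of CD44 and CD47, Rdx was the 1 call, at 24 h, and was also called between the times, by 3.77. It encodes radixin, which links CD44 to actin, and read 4.19 and 2.46 (3.32 ± 1.22), after 0.11 and -1.0 at 4 h.

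**Figure D4:**
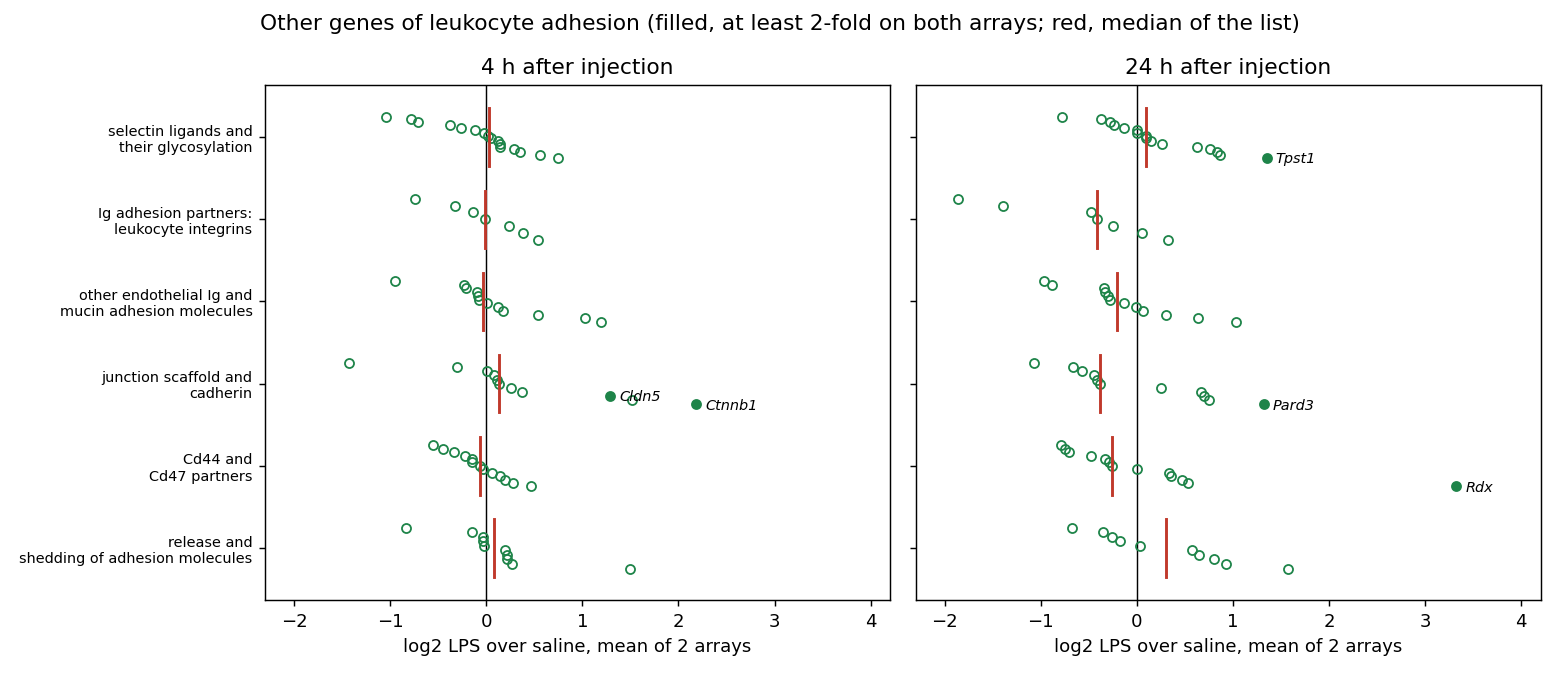
Means of 69 other adhesion genes in 6 lists, in log2 LPS over saline, at 4 h and at 24 h. Each circle is a gene, filled and named where both arrays were at least 2-fold from 0 on the same side, and red bars are medians of the lists. Ctnnb1 and Cldn5 are the filled genes at 4 h, and Tpst1, Pard3 and Rdx those at 24 h.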

How the data were processed

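The authors' deposited table held 1 log2 ratio of the 2 dyes per spot for 32448 spots on each of 4 arrays, with a median near 0. Not given in the sources used here are the steps from scanner to ratio and the direction. Signs of the LPS-in-Cy3 arrays were turned, following the dyes in the labels. Of the spots, 24344 had 1 gene symbol in the platform annotation, 98 had several and 8006 were unlisted. All 10 members matched RefSeq (GRCm38.p6) by gene identifier. Duplicate spots were averaged, then oligonucleotides, and arrays were centred on the median over 11138 genes. The every-spot criterion used uncentred values. The call at 4 h and the mean of the arrays of that time were checked on shuffled gene values with known changes added. Averaging over spots and oligonucleotides was not checked there. Without intensities, dim spots cannot be recognised, and 2 arrays per time limit the precision. Members, lists, motifs and tests were chosen with earlier results of these data known. Named are all members, list genes called at either time and the 3 genes most like each called member. Marker genes and list genes called only between the times were added after their values were seen. Python 3.11.15, pandas 2.3.3 and limma 3.58.1 (R 4.3.3) were used, with limma only in an alternative that took arrays as separate samples.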

Additional observations from a re-analysis of the deposited data

Results flagged for a closer look

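Among the 10 members, the adhesion list genes called at a time or between the times and the markers called at a time, those whose 2 arrays of 4 h lay on one side of 0 and whose 2 arrays of 24 h lay on the other were looked at again. Apart from the limma alternative given below, in which no gene passed, the difference between the times was not tested. Below 0 at 4 h and above 0 at 24 h were Icam2, with a difference of 1.95, Pard3, which encodes a scaffold that binds JAM proteins, with 2.74, Glg1 with 1.91, the endothelial markers Kdr with 4.10 and Eng with 5.77, and the neutrophil markers S100a8 with 2.71 and S100a9 with 1.87. Above 0 at 4 h and below 0 at 24 h were Cldn5, with a difference of -1.96, and Mcam with -1.16. Of all 11138 genes, 6.46% went the way of Icam2 and 5.84% the way of Cldn5. These shares count genes called or not, whereas the list genes and markers looked at had to be called, so the 2 are not alike.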

How the results depend on the processing

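Called are 1, 1 and 3 of the 10 adhesion genes at 4 h, at 24 h and between the times, and 362, 780 and 2201 of all genes. Without centring these counts were 1, 1 and 3 and 360, 760 and 2185. Scale normalization gave 0 adhesion genes at 24 h, called Sele in place of Jam2 between the times, and 557 and 424 of all genes at 4 h and 24 h. Quantile normalization gave 0 adhesion genes at 24 h and 561 of all genes at 4 h. Without ratios of exactly 1, 2 adhesion genes were called at 4 h (Sele, Cd47) and 2 at 24 h (Vcam1 higher, Selplg lower). For Cd47, replicate 2 of 4 h then kept only the first oligonucleotide, since the second held ratios of exactly 1. Selplg itself held 0 such ratios in 8 spot values, so only the array centre moved its mean at 24 h, from -1.446 to -1.451. With duplicate spots within 0.5 log2 units, which left 6, 5 and 4 of the 10 genes and neither Sele nor Vcam1 at 4 h, 0 adhesion genes were called at 4 h and 1, Icam2, between the times, and 157, 377 and 464 of all genes. Where every spot had to be 2-fold, 0 adhesion genes were called at 24 h, and 176 and 401 of all genes at 4 h and 24 h. At a threshold of 1.5-fold, 4, 3 and 5 adhesion genes and 941, 1808 and 3338 of all genes were called. At 4 h these 4 were Sele, Selp, Vcam1 and Cd47, all higher.

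With the deposited signs kept, 0, 0 and 0 adhesion genes and 158, 411 and 1298 of all genes were called. Sele at 4 h then stood at -0.076, and the differences between the times at -1.20 for Icam2 and -0.53 for Jam2, by the construction of this alternative. From 1 array per time, 3 to 3 adhesion genes were called at 4 h, 3 to 4 at 24 h and 2 to 4 between the times, and 1414 to 2317, 3239 to 3408 and 3873 to 4270 of all genes, since a single array then decides. Sele at 4 h and Vcam1 at 24 h were called on either array alone by construction, since the main call already asks this of both arrays. Selplg was called between the times on either array alone. Icam2 and Jam2 between the times were called without replicate 1 and not without replicate 2. In limma with the arrays as separate samples, 0 of the 10 and 0 of all genes had an adjusted p under 0.05 at 4 h, at 24 h and between the times, with 475, 1126 and 638 genes at an unadjusted p under 0.05. The lowest adjusted p of a member in limma was 0.43, for Selplg at 24 h. The labels give no replicate numbers, so no block was fitted, and the values from 1 array per time are also those within 1 dye orientation. Where no cause is named, the cause was not tested.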
